A study of Rattus norvegicus and Mus musculus and Macaca mulatta with 84 samples.

Results

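The genes described here are the 7 sirtuins, Sirt1 to Sirt7, together with Nampt, Nmnat1 and Parp1, which make or use the NAD that sirtuins depend on. They were taken by gene symbol from the 2 liver RNA tables of the series. All 10 were found among 48440 rows of the mouse table and 9 among 32754 rows of the rat table, where Sirt1 was not analysed here. Each symbol found had 1 row.

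The mouse table compared livers of C57BL/6J mice given LNA-29 (n = 5), a locked nucleic acid directed against the microRNA miR-29, with control livers (n = 6). The rat table compared livers of UCD-T2DM rats, a strain that develops obesity and then type 2 diabetes, sampled 2 weeks (n = 4), 3 months (n = 5) or 6 months (n = 6) into diabetes, with livers of prediabetic rats of the same strain (n = 5). Every rat group therefore carried the UCD-T2DM background, and no rat without it entered these comparisons. The labels do not state the LNA dose, the length of treatment or what the control mice were given. They also leave out the sex and age of the animals, so time in diabetes cannot be told apart from age in the rats. The rat labels name a separate animal for each library, while the mouse labels only number the libraries, so p-values for mice measure the spread between libraries, which may be technical.

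Sirtuins remove acetyl and other acyl groups from lysines and split an NAD molecule each time they do so, which ties their activity to the NAD supply. SIRT1, SIRT6 and SIRT7 are found mainly in the nucleus, SIRT2 mainly in the cytoplasm, and SIRT3, SIRT4 and SIRT5 in mitochondria, where SIRT3 is the main deacetylase. NAMPT turns nicotinamide, the product left over by sirtuins, back into nicotinamide mononucleotide, and NMNAT1 completes NAD from it in the nucleus. PARP1 consumes NAD when it builds poly(ADP-ribose) chains at damaged DNA. In liver, sirtuins are studied for their effects on fat oxidation, ketone production, gluconeogenesis and the urea cycle.

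The miR-29 family is printed because the mouse treatment was directed against miR-29. The mature 3p arms are those of the rat from RefSeq (GRCr8), 5′ to 3′, with the seed, bases 2 to 8, in capitals.
miR-29a-3p: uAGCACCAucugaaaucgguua
miR-29b-3p: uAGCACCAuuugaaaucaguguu
miR-29c-3p: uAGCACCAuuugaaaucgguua
The 3 mature sequences come from 4 loci and share 1 seed. miR-29a-3p lies at chr4:60617968-60617989 on the minus strand, and miR-29c-3p at chr13:109099412-109099433 on the plus strand. miR-29b-3p lies at both chr4:60618342-60618364 (minus strand) and chr13:109098882-109098904 (plus strand).

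Values are the authors' normalised counts, which are not divided by gene length, so levels are compared between libraries and not between genes. The values of a library summed, in units of 1000000, to 37.6 to 49.9 in rats and 43.3 to 52.8 in mice. All 19 gene rows passed the filter of a mean of at least 10, leaving 14596 mouse and 13640 rat genes tested. Sirt6 in mice was the most thinly measured, at 59.8 to 92.5 per library, followed by Sirt4 at 147 to 234 in mice and 115 to 179 in rats. A gene is said to have risen or fallen where limma's test on log2(value + 1), fitted across all genes of the table and adjusted by the Benjamini-Hochberg method, gave an adjusted p below 0.05. Log2 changes below are on that scale.

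In mice, LNA-29 changed none of the 10 genes past that threshold, against 2.43% of all genes tested. By limma 2 of them had an unadjusted p below 0.05, against 2809 of the 14596 genes tested. Reported miR-29 targets of the extracellular matrix were set beside them. Of that list 6 of 11 rose. Among them, Sparc, which encodes a collagen-binding matrix protein, was at 4250 ± 578 in LNA-29 livers and 1770 ± 138 in control livers. Eln, the gene of elastin, was at 259 ± 57.8 in LNA-29 livers and 72.2 ± 13.4 in control livers. Both calls held in 15 of 15 alternatives without a replicate block and also with that block. The other calls of the list held in 7 to 13 of the 15, and not all of them held with the block.

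Sirt1, the nuclear deacetylase of histones and of metabolic transcription factors, came closest to the threshold. It was measured at 483, 539, 535, 502 and 478 in the 5 LNA-29 livers, against a lowest value of 562, a median of 600.3 and a highest of 626 in the 6 control livers. The 2 groups did not overlap, every LNA-29 liver lying below every control liver; 3.95% of all genes tested had groups that did not overlap. The means were 507 ± 28.6 in LNA-29 livers and 599 ± 22.2 in control livers (SD), a log2 change of -0.24 (SE 0.06, 95% interval -0.37 to -0.11) or a ratio of 0.846. The adjusted p was 0.0576, and 2.77% of genes tested had a smaller or equal p. Without LNA-29 replicate 2, which held 45.2 of the adipocyte gene Cfd and 14.6 of Adipoq where no other mouse liver exceeded 2.50 of either, limma's adjusted p for Sirt1 was 0.0439. That library also held the highest Sirt1 among LNA-29 livers. Of all mouse livers it had the highest level of the hepatocyte gene Ass1, at 195711, and the lowest of the macrophage gene Csf1r, at 1034. Without it 540 genes were called, against 355 with all libraries. Why this library differed was not tested. No other alternative called Sirt1, and over all alternatives its limma adjusted p lay between 0.0439 and 0.243.

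Nampt was at 2320, 2661, 2718, 2602 and 2522 in LNA-29 livers, against a lowest of 2472, a median of 2922 and a highest of 3271 in control livers. The groups overlapped through control replicate 1, the lowest control, and the log2 change was -0.18 (SE 0.07, limma adjusted p = 0.187). Sirt5, the mitochondrial enzyme that removes succinyl and malonyl groups, was at 317, 313, 327, 330 and 325 in LNA-29 livers, against a lowest of 255, a median of 289 and a highest of 327 in control livers. Its LNA-29 livers lay in a narrow band at the top of the control range, with a log2 change of 0.16 (SE 0.07, limma adjusted p = 0.264). Parp1 was at 1607, 1605, 1633, 1728 and 1616 in LNA-29 livers, against 1412 to 1665 in control livers (log2 change 0.10, limma adjusted p = 0.410).

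The other genes differed little between the mouse groups. Log2 changes were 0.07 for Sirt2, 0.05 for Sirt3, -0.02 for Sirt4, 0.01 for Sirt6, -0.05 for Sirt7 and -0.06 for Nmnat1, with limma adjusted p from 0.483 to 0.974. Their precision differed. The 95% interval ran from -0.04 to 0.17 for Sirt2, whose mouse values lay within 1926 to 2184, but from -0.33 to 0.36 for Sirt6. Over all 10 genes 5 changes were positive and the median was -0.00, against 0.00 over all genes tested.

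**Figure D1:**
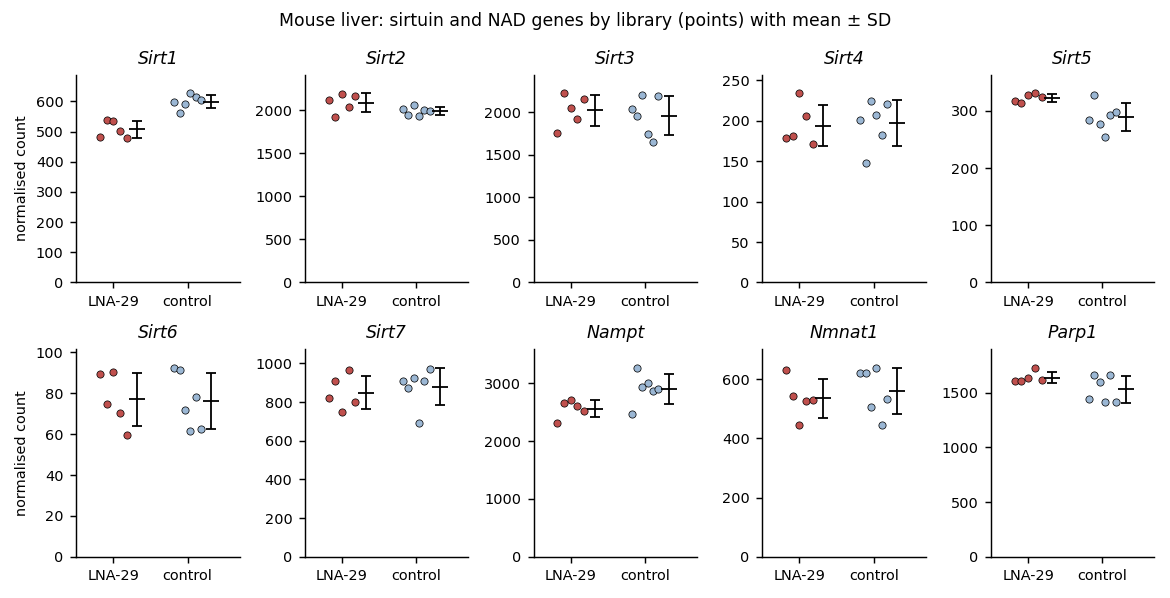
Normalised counts of the 10 genes in mouse liver, a panel per gene with its own axis from 0, LNA-29 libraries (n = 5) left of control libraries (n = 6); points are libraries and bars are means ± SD. Sirt1 is the panel in which every LNA-29 point, at 478 to 539, lies below every control point, at 562 to 626.

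Around these genes, counts in the NAD lists are read against the 2.43% of all genes called with LNA-29. In the list of other NAD consumers and ADP-ribose handling 1 of 22 rose and 1 fell. Parp16, which encodes an ADP-ribosyltransferase of the endoplasmic reticulum membrane, rose to 2315 ± 1009 in LNA-29 livers, against 854 ± 92.2 in control livers (log2 change 1.35, SE 0.20, limma adjusted p = 0.00569). Its LNA-29 values were 2520, 1835, 3991, 1548 and 1682, each above the highest control at 971. Tnks2, the gene of tankyrase 2, which attaches poly(ADP-ribose) to its target proteins, fell to 2263 ± 198 in LNA-29 livers, against 2850 ± 234 in control livers (log2 change -0.33, SE 0.07, limma adjusted p = 0.0365).

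In the salvage and Preiss-Handler list 1 of 7 rose, Pnp, whose product splits nicotinamide riboside. It was at 5643 ± 516 in LNA-29 livers and 4499 ± 324 in control livers (log2 change 0.32, SE 0.07, limma adjusted p = 0.0376). The calls of Tnks2 and Pnp each held in 6 of 15 alternatives, with limma adjusted p up to 0.101 and 0.102, while that of Parp16 held in 15 of 15. Such numbers of alternatives leave out a fit with a replicate block, in which all 3 of these calls ended (limma adjusted p = 0.0551 for Parp16, 0.0931 for Tnks2 and 0.0810 for Pnp). None was called among 8 genes of NAD synthesis from tryptophan, 8 of nicotinamide breakdown and NADP, 13 sirtuin regulators or 20 sirtuin substrates and partners. In mice 1 of 8 endothelial markers rose, and no Kupffer cell, stellate cell, bile duct, leukocyte, red blood cell or hepatocyte marker passed the test.

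In rats 3 of the 9 genes differed between stages. Sirt3 was higher at 6 months than in prediabetic livers, Nmnat1 was lower at 3 months and Parp1 was lower at 6 months, while the other 6 genes passed the test at no stage. At 2 weeks none of 9 was called against prediabetic livers, and 0 of 13640 genes tested were called by limma (0%), with 1077 at an unadjusted p below 0.05. At 3 months 1 of 9 was called, a fall, against 16.5% of all genes, and at 6 months 2 of 9 were called, 1 rise and 1 fall, against 21.1% of all genes. The median log2 change of the 9 genes was -0.10 at 2 weeks, -0.18 at 3 months and -0.06 at 6 months, and that of all genes tested was 0.02, 0.02 and 0.01. The 3 comparisons share their prediabetic livers, so their values are given side by side and not as separate support for each other.

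Sirt3 was at 916, 1150, 972, 784 and 893 in prediabetic livers and at 950, 934, 818 and 799 after 2 weeks of diabetes. After 3 months it was at 1013, 1467, 1191, 1171 and 1280, and after 6 months its lowest value was 1190, its median 1469 and its highest 2084. Every 6-month liver lay above every prediabetic and every 2-week liver, every 3-month liver lay above every 2-week liver, and the 3-month and prediabetic livers overlapped. Of all genes tested, 9.80% had groups that did not overlap at 6 months against prediabetic. That share was 9.78% at 6 months and 8.06% at 3 months against 2 weeks. Group means, in stage order, were 943 ± 134, 875 ± 77.8, 1224 ± 166 and 1531 ± 299 (SD).

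At 6 months Sirt3 was 1.61-fold the prediabetic level (log2 change 0.69, SE 0.13, 95% interval 0.43 to 0.95, limma adjusted p = 0.00107), and it stayed called in every alternative tried. Against 2 weeks it was higher by a log2 of 0.79 (SE 0.13, limma adjusted p = 0.00204, or 0.0785 with a replicate block), the 1 call among 9 genes in a comparison where 8.82% of all genes were called. At 3 months its log2 change was 0.38 against prediabetic livers (limma adjusted p = 0.0550) and 0.48 against 2-week livers (limma adjusted p = 0.0733). The first of these passed the threshold without prediabetic replicate 2 (limma adjusted p = 0.0281) or without 3-month replicate 1 (limma adjusted p = 0.0432). Between 6 and 3 months the groups overlapped and the log2 change was 0.31 (SE 0.13, limma adjusted p = 0.632). Ordered by mean level, the neighbours 2-week and prediabetic, prediabetic and 3-month, and 3-month and 6-month did not differ past the threshold.

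**Figure D2:**
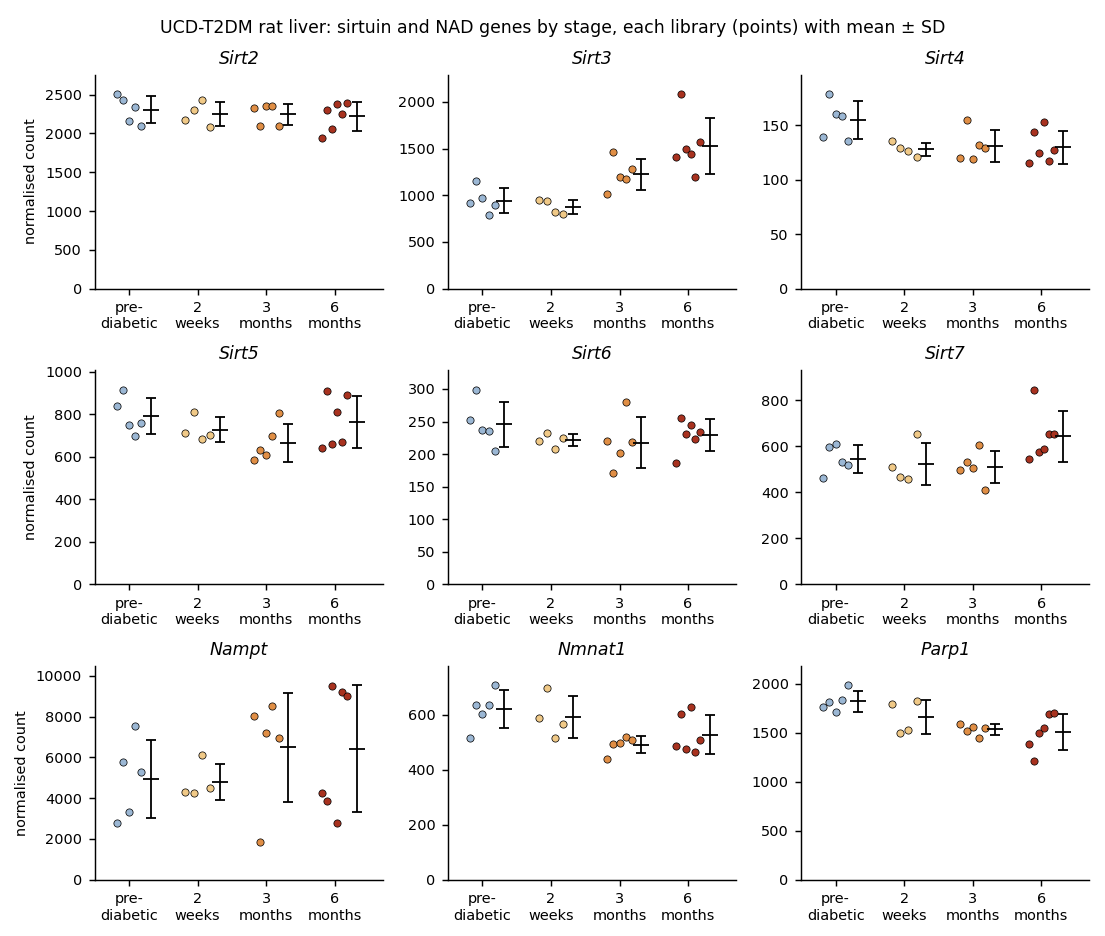
Normalised counts of the 9 genes analysed in UCD-T2DM rat liver, a panel per gene with its own axis from 0, in stage order from prediabetic (n = 5) through 2 weeks (n = 4) and 3 months (n = 5) to 6 months (n = 6); points are libraries and bars are means ± SD. Sirt3 means run 943, 875, 1224 and 1531, Parp1 lies lower at 3 and 6 months than in prediabetic livers, and Nampt spreads from 1858 to 9507.

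The other mitochondrial sirtuins passed the test in no stage comparison. Sirt4, which acts on mitochondrial metabolic enzymes and is thinly measured, was at 139, 179, 161, 159 and 135 in prediabetic livers and at 135, 129, 126 and 121 after 2 weeks. At 3 months it was at 120, 155, 119, 131 and 129, and at 6 months it ran from 115 to 153 with a median of 126. Its means were lower than the prediabetic mean at each stage, by a log2 of -0.27, -0.24 and -0.25 in stage order, with limma adjusted p of 0.593, 0.160 and 0.110. Sirt5 ranged from 584 to 916 over all rat livers, with log2 changes of -0.12, -0.26 and -0.06 against prediabetic livers and limma adjusted p of 0.840, 0.143 and 0.733.

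Of the nuclear sirtuins, Sirt6, a deacetylase of chromatin, ran from 170 to 299 over all rat livers and its log2 changes were -0.14, -0.18 and -0.10 in stage order (limma adjusted p from 0.342 to 0.822). Sirt7, the nucleolar sirtuin, was at 461, 597, 612, 531 and 519 in prediabetic livers and at 511, 466, 458 and 656 after 2 weeks. It was at 496, 530, 506, 608 and 411 at 3 months, and ran from 544 to 847 with a median of 619 at 6 months. The 6-month livers were highest on average, at 643 ± 109, but overlapped each other stage, and the log2 change was 0.23 against prediabetic livers (limma adjusted p = 0.205), 0.30 against 2-week livers (limma adjusted p = 0.167) and 0.33 against 3-month livers (limma adjusted p = 0.632). Sirt2, the cytoplasmic sirtuin, was the most even, at 1938 to 2508 over all 20 livers, with log2 changes of -0.04, -0.04 and -0.06 against prediabetic livers, and its 6-month interval ran from -0.22 to 0.10.

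Parp1 was at 1759, 1816, 1709, 1838 and 1987 in prediabetic livers and at 1789, 1499, 1527 and 1824 after 2 weeks. At 3 months it was at 1588, 1519, 1562, 1449 and 1549, and at 6 months it ran from 1216 to 1700 with a median of 1521. Every 3-month and every 6-month liver lay below every prediabetic liver, while the 2-week livers spanned both. At 6 months the mean was 1506 ± 186, against 1822 ± 105 in prediabetic livers (log2 change -0.28, SE 0.09, ratio 0.823, limma adjusted p = 0.0259).

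At 3 months the Parp1 mean was 1533 ± 53.2, with a log2 change of -0.25 (SE 0.09, limma adjusted p = 0.0652). The share of all genes with groups that did not overlap was 12.0% at 3 months and 9.80% at 6 months. The 6-month call ended in a fit of those 2 stages alone (limma adjusted p = 0.0683) and without prediabetic replicate 4 or 5 or 6-month replicate 1 or 2 (limma adjusted p from 0.0527 to 0.0748). It also ended with a replicate block (limma adjusted p = 0.0627).

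Nmnat1 was at 516, 636, 602, 635 and 707 in prediabetic livers and at 589, 698, 516 and 567 after 2 weeks. It was at 438, 493, 496, 517 and 506 at 3 months and ran from 464 to 629 with a median of 496 at 6 months. Of the 3-month livers 4 lay below the lowest prediabetic liver, and the fifth, at 517, just above it. At 3 months the mean fell to 490 ± 30.7, against 619 ± 69.2 in prediabetic livers (log2 change -0.33, SE 0.11, ratio 0.794, limma adjusted p = 0.0414).

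That call of Nmnat1 is close to the threshold and held in 5 of 15 alternatives. It ended with no filter on low values, with equal column sums, in a fit of the 2 stages alone, and without prediabetic replicate 2, 3, 4 or 5 or 3-month replicate 1, 2 or 3, with limma adjusted p up to 0.126. At 6 months the log2 change was -0.24 (SE 0.10, limma adjusted p = 0.113), and between 6 and 3 months it was 0.10 (limma adjusted p = 0.778).

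Nampt, the rate-limiting enzyme of NAD salvage, varied more between livers of the same stage than the other 8 genes. It was at 2790, 5770, 3328, 7518 and 5302 in prediabetic livers, at 4309, 4256, 6126 and 4493 after 2 weeks, and at 8001, 1858, 7173, 8534 and 6924 at 3 months. At 6 months 3 livers were at 2773, 3858 and 4251 and the other 3 at 9006, 9186 and 9507. Both extremes of the 5.12-fold range, 1858 and 9507, came from the 2 late stages, and all 4 stages overlapped.

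The log2 change of Nampt was 0.03 at 2 weeks, 0.31 at 3 months and 0.31 at 6 months against prediabetic livers, with SE from 0.39 to 0.43 and limma adjusted p from 0.614 to 0.991. With a library left out the 3-month change ran from 0.13, without prediabetic replicate 1, to 0.72, without 3-month replicate 2 (limma adjusted p = 0.174), and the 6-month change from 0.13 to 0.52, none of them called. The 6-month interval ran from -0.50 to 1.12, so a change of the size seen in Sirt3 was not detectable in Nampt. Its SD within stages was 0.71 on the log2 scale, and 7.87% of rat genes had a larger one, the median gene having 0.27. In mice the SD of Nampt within groups was 0.11.

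The genes whose values were most like those of Nampt, by Pearson r over 20 rat livers after each stage mean was subtracted and among 11417 genes, were Yif1a (0.86), Zfp46 (0.81), Rfc3 (0.81), Eif1a (0.80) and E2f4 (0.79). For Sirt1 the same measure could be taken over the 11 mouse livers only, and among 11900 genes the highest were Nup93 (0.93), Ift43 (0.89), Pkp2 (0.89), Ccdc9 (0.89) and Rsrc2 (0.89). Among the rat members, Sirt3 varied within stages most like Sirt5 (r = 0.64) and Sirt4 (r = 0.63), and Sirt6 most like Sirt2 (r = 0.58) and Sirt5 (r = 0.57). Nampt ran opposite to Sirt4 (r = -0.47) and Sirt3 (r = -0.46), and Parp1 opposite to Sirt3 (r = -0.50). These are descriptions over livers that share a library's depth and composition. The genes named for Nampt and Sirt1 are the highest of many over few livers, so a high r was partly fixed by selection. Without subtracting group means, r was 0.42 for Yif1a with Nampt, and -0.41 for Ift43 and 0.32 for Pkp2 with Sirt1. The other genes named for them kept an r between 0.67 and 0.80.

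Comparisons among the diabetic stages added 1 call. At 3 months against 2 weeks none of the 9 genes passed, against 2.35% of all genes, and limma gave 2 of the 9, and 2513 of all 13640 genes, an unadjusted p below 0.05. At 6 months against 3 months none passed, against 0.0147% of all genes, and limma gave 2 of the 9, and 1058 of all genes, an unadjusted p below 0.05. That share stands for 2 genes without a described product, AABR07015081.2 and AABR07015057.1, both lower at 6 months (limma adjusted p = 0.0242 each) and named after their values were seen. The median log2 change of the 9 genes was -0.03 at 3 months against 2 weeks, 0.04 at 6 months against 2 weeks and 0.09 at 6 months against 3 months.

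**Figure D3:**
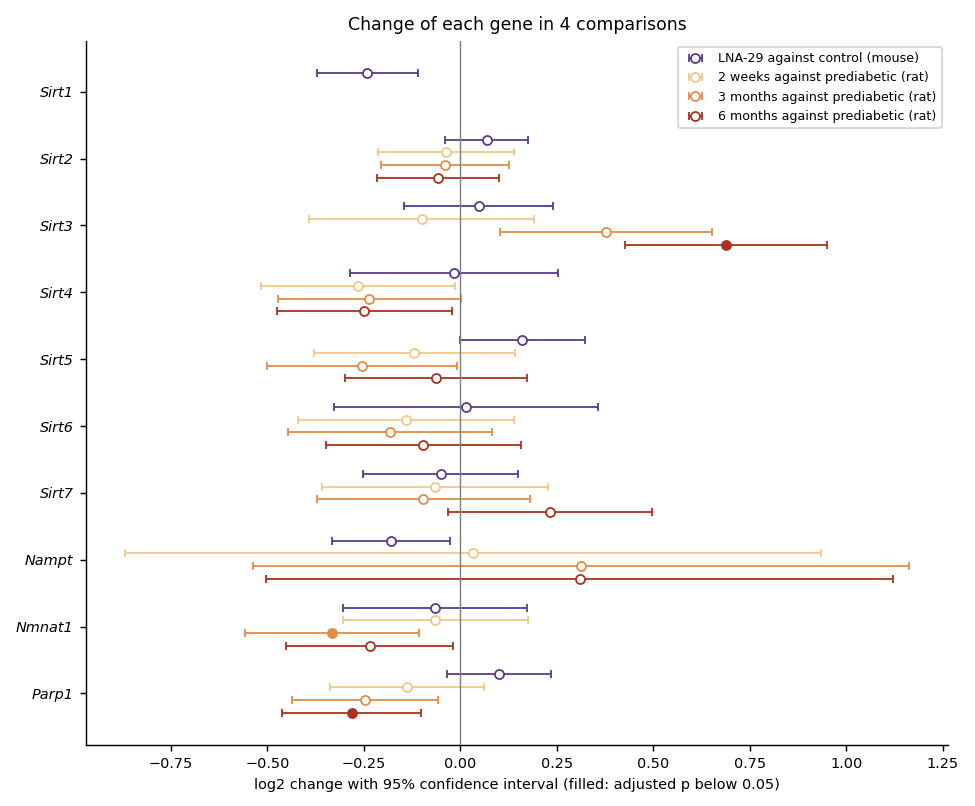
Log2 change of each gene (points) with its 95% confidence interval (bars) in 4 comparisons, LNA-29 against control in mice and 2 weeks, 3 months and 6 months against prediabetic in rats; filled points passed an adjusted p of 0.05. Sirt3 at 6 months lies farthest to the right among the filled points, at 0.69, and the 3 rat Nampt intervals are wider than those of the other genes.

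In bulk liver, fewer cells of a type and less RNA per cell cannot be told apart, and other cell types moved with the later stages. Of 10 Kupffer cell and macrophage markers 9 rose at 3 months and 9 at 6 months against prediabetic livers. Their summed level was 14621 to 22365 in prediabetic livers, 14875 to 18628 at 2 weeks, 21587 to 47481 at 3 months and 22243 to 60763 at 6 months. Of 8 neutrophil and lymphocyte markers 4 rose at each of the 2 late stages, of 8 stellate markers 5 rose at 3 months and 3 at 6 months, and of 7 endothelial markers 2 rose at each.

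Bile duct markers rose in 1 of 6 at 3 months and 3 of 6 at 6 months. All 9 hepatocyte markers were expressed in every group, 1 fell at 3 months, and 1 rose and 1 fell at 6 months. No red blood cell marker passed the test, and of 2 adipocyte and pancreas markers tested 1 rose and 1 fell at 6 months. Of the 11 miR-29 matrix targets none was called at 2 weeks, 5 rose at 3 months, and 2 rose and 1 fell at 6 months. The part of these cell types in the changes of Sirt3, Parp1 and Nmnat1 was not tested.

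Counts in the lists around NAD are read against the 16.5% of all genes called at 3 months and the 21.1% called at 6 months. In the list of NAD synthesis from tryptophan 1 of 8 rose and 1 fell at 3 months, and 1 rose and 2 fell at 6 months. Acmsd, whose product draws the pathway's intermediate away from NAD, rose to 705 ± 307 at 3 months and 735 ± 359 at 6 months, against 152 ± 20.6 in prediabetic livers, a log2 change of 2.11 at both stages (limma adjusted p = 0.000865 and 0.000356). Its lowest value at those stages was 291, in 6-month replicate 1, and its highest in prediabetic livers was 188.

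Qprt, whose product makes nicotinic acid mononucleotide from quinolinate, fell to 2131 ± 378 at 3 months and 2395 ± 223 at 6 months, against 3874 ± 390 in prediabetic livers (log2 changes -0.87 and -0.69, limma adjusted p = 0.000222 and 0.000564). Kynu, the gene of kynureninase, of the same route, fell at 6 months to 3052 ± 1510, against 6492 ± 1967 in prediabetic livers (log2 change -1.15, limma adjusted p = 0.00510). Acmsd also rose against 2-week livers, by 1.46 at both late stages (limma adjusted p = 0.0432 at 3 months and 0.0182 at 6 months). The 3-month call ended with no filter, in a fit of the 2 stages alone, and without 2-week replicate 1, 2 or 3 or 3-month replicate 1, 2, 3 or 4 (limma adjusted p up to 0.175), and the 6-month call without 2-week replicate 1 or 2 (limma adjusted p up to 0.0776).

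In the salvage and Preiss-Handler list 1 of 7 was called at each late stage. This was Nadsyn1, which closes the route from nicotinic acid, at 510 ± 141 at 3 months and 502 ± 60.6 at 6 months, against 696 ± 62.7 in prediabetic livers (log2 changes -0.48 and -0.47, limma adjusted p = 0.0249 and 0.0182). Its 3-month call ended with equal column sums, in a fit of the 2 stages alone and without 3-month replicate 1, 3 or 4 (limma adjusted p up to 0.0805).

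In the list of nicotinamide breakdown and NADP 3 of 8 fell at 3 months and 4 of 8 at 6 months, and none rose. Nadk, which phosphorylates NAD to NADP, was at 5913 ± 399 at 3 months and 5559 ± 482 at 6 months, against 8203 ± 1153 in prediabetic livers (log2 changes -0.46 and -0.55, limma adjusted p = 0.00546 and 0.000764). Nnt, the transhydrogenase of the inner mitochondrial membrane, fell by 0.58 at 3 months and by 0.67 at 6 months on the log2 scale (limma adjusted p = 0.0248 and 0.00697). Nudt13, a mitochondrial hydrolase of NADH, fell by 0.78 and by 0.59 (limma adjusted p = 0.0141 and 0.0360), and Nudt12, a relative of it, fell at 6 months by 0.65 (limma adjusted p = 0.0395). The 3-month call of Nnt held in 7 of 15 alternatives, and the 6-month calls of Nudt13 and Nudt12 in 8 and 7 of 16.

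In the list of other NAD consumers and ADP-ribose handling 3 of 19 rose at each late stage and none fell. Among all genes tested 7.76% rose at 3 months and 11% at 6 months. Parp3, of the DNA-damage-responsive PARPs, was at 1420 ± 323 at 3 months and 1513 ± 159 at 6 months, against 965 ± 73.0 in prediabetic livers (log2 changes 0.53 and 0.64, limma adjusted p = 0.00914 and 0.00142). Parp8 was at 85.6 ± 17.3 and 94.0 ± 18.9, against 51.7 ± 9.20 in prediabetic livers (log2 changes 0.70 and 0.84). Cd38, an NAD-cleaving enzyme abundant on immune cells, was at 445 ± 160 and 392 ± 170, against 213 ± 47.2 in prediabetic livers (log2 changes 1.03 and 0.80, limma adjusted p = 0.0163 and 0.0373). The 3-month call of Cd38 ended without 3-month replicate 1 (limma adjusted p = 0.0531) and its 6-month call held in 7 of 16 alternatives.

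**Figure D4:**
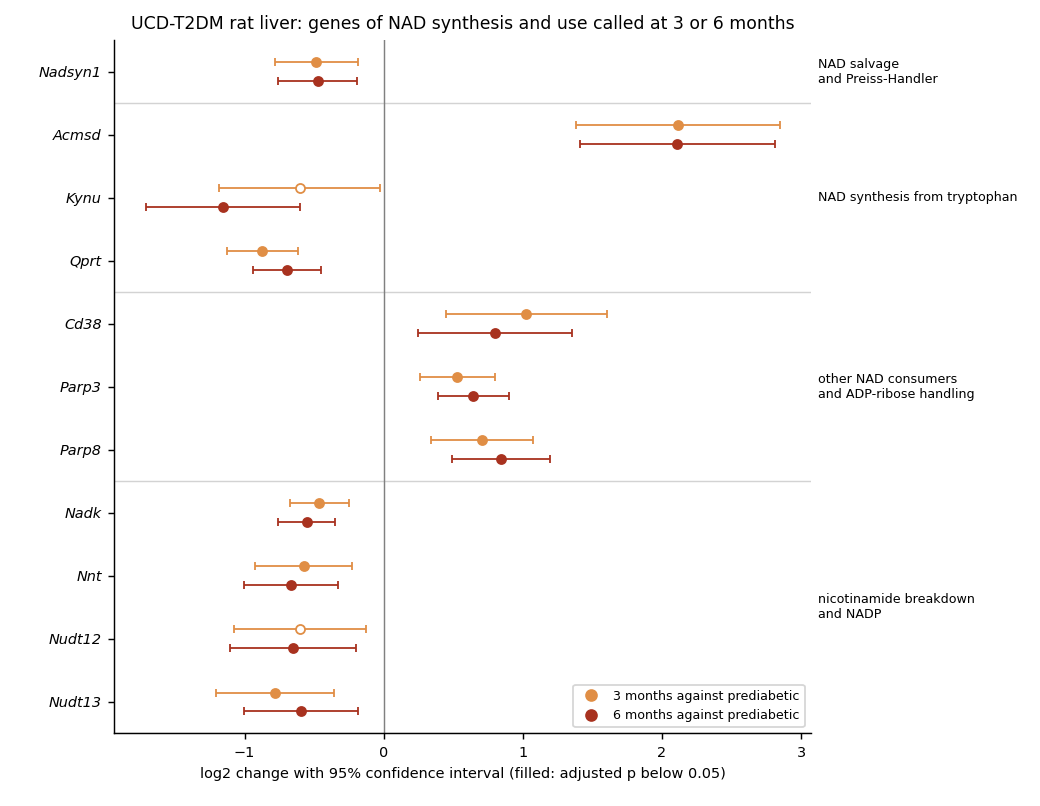
Log2 change against prediabetic livers (points) with 95% confidence intervals (bars) at 3 months and 6 months for the 11 genes of the 4 NAD lists that were called at either stage; filled points passed an adjusted p of 0.05. Acmsd lies at 2.11 at both stages, the called genes of nicotinamide breakdown and NADP all lie below 0, and the called NAD consumers all lie above 0.

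None of 13 sirtuin regulators was called at any stage. Of 20 sirtuin substrates and partners 2 rose and 5 fell at 3 months, and 2 rose and 4 fell at 6 months. Idh2, the mitochondrial isocitrate dehydrogenase known in mice as a substrate of SIRT3, rose to 3052 ± 742 at 3 months and 3832 ± 923 at 6 months, against 1597 ± 351 in prediabetic livers (log2 changes 0.93 and 1.26, limma adjusted p = 0.00784 and 0.000473). Acadl, a SIRT3 substrate of fatty acid oxidation, fell at 6 months by 0.70 on the log2 scale (limma adjusted p = 0.00195).

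Srebf1, the lipogenic transcription factor that SIRT1 deacetylates, fell by 1.33 at 3 months and by 1.10 at 6 months, and Nr1h3, the liver X receptor, fell by 0.34 at 3 months (limma adjusted p = 0.00460). The named genes of this list moved in both directions, and these are transcript levels, not acetylation. A link of their changes to Sirt3 was not tested. Against 2 weeks the 6-month livers were higher in Idh2 by 0.90 and in Sarm1, an NAD-cleaving enzyme, by 1.75, and lower in Kynu by 1.12, in Aox3, an aldehyde oxidase that breaks down nicotinamide derivatives, by 1.57 and in Nadk by 0.34 on the log2 scale (limma adjusted p from 0.0154 to 0.0481). The calls of Sarm1 and Nadk there held in 5 of 15 alternatives, that of Kynu in 12, that of Idh2 in 13 and that of Aox3 in 14.

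The promoters of Sirt3 and Parp1, called in opposite directions at 6 months, are printed because both hold the same motif. Each runs from 250 bases before to 50 bases after the RefSeq gene start in GRCr8, 5′ to 3′ on the gene's strand, with the GC box GGGCGG or its reverse complement CCGCCC in capitals. Sirt3 is at chr1:205393552-205393851 on the minus strand and Parp1 at chr13:94839234-94839533 on the plus strand.
Sirt3: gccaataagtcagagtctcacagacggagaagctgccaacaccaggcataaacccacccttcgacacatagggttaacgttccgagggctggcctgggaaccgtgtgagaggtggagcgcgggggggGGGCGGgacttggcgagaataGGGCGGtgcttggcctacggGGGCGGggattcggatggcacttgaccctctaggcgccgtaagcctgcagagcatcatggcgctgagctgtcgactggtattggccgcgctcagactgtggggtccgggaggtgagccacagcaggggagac
Parp1: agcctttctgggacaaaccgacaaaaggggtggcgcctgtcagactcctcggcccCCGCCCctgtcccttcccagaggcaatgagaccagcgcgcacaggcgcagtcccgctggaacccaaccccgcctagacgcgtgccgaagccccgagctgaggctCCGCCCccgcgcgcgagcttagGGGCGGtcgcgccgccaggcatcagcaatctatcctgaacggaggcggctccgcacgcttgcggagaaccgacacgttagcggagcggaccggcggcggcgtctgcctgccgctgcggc
Each window held 3 GC boxes, as did that of Sirt1, and those of Nmnat1 and Sirt7 held 1 each. The windows of Sirt2, Sirt4 and Sirt5 held none. Of 33469 rat promoters of this length 33.1% held at least 1. The windows of Sirt3, Parp1 and Nmnat1 held none of the nuclear receptor half-site AGGTCA, the E-box CACGTG or the TATA box TATAAA on either strand, motifs found in 16.2%, 6.42% and 14.2% of promoters. Promoters were found for 8 of the 10 genes. Their GC content was 63.3% for Sirt3 and 70.3% for Parp1. Whether counting used the strand of the reads is not given in the sources used here, and in the GRCr8 annotation Sirt2, Sirt4 and Nmnat1 overlap other annotated genes, so reads in the shared stretches may belong to either.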

How the data were processed

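Liver RNA was measured in 11 mouse and 20 rat libraries made with an Illumina TruSeq polyA+ kit, per the labels. The submitters' processing notes name STAR, Salmon and DESeq2 and list rn6, mm10, mm9 and hg19 as builds, without roles or versions. The 2 tables hold normalised counts, a signal scaled by the authors before deposit. The values are not whole and the reads behind them could not be recovered, so the depth is unknown and count models were not used. Other deposited tables were not used here.

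From these, log2(value + 1) was fitted with limma 3.58.1 (R 4.3.3, mean-variance trend) for genes with a mean of at least 10 over the table, all groups of a table sharing one estimate of the spread. P-values were adjusted over all genes tested by the Benjamini-Hochberg method and called below 0.05. The script was tested on simulated data. Replicate numbers showed no clear pairing of the libraries, though so few pairs cannot exclude it.

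All 10 genes are named in every comparison. Of the other lists (NAD synthesis and use, sirtuin regulators, substrates and partners, miR-29 matrix targets, cell type markers) counts are given, with up to 4 called genes per list and comparison by smallest adjusted p. One gene of the substrate list is counted and not reported here by name. Members and lists were chosen with earlier results of these data known. Likeness was planned over rat libraries and was taken over mouse libraries for Sirt1. Alternatives were a pseudocount of 5, no filter, median-of-ratios rescaling, equal column sums, a fit of 2 stages alone, a replicate block and omission of each library.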

Additional observations from a re-analysis of the deposited data

Results flagged for a closer look

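In 5 groups of libraries a single library stood apart from the others in 1 of the genes described, by Dixon's gap-to-range ratio at the 95% level. Of 56 groups of libraries examined, chance alone flags about 1 in 20. In rats, Nampt was 1858 in 3-month replicate 2, where the next lowest 3-month liver was at 6924, and 6126 in 2-week replicate 3, where the next highest 2-week liver was at 4493. Sirt7 was 847 in 6-month replicate 2, where the next highest was 653. In mice, Parp1 was 1728 in LNA-29 replicate 4, where the next highest LNA-29 liver was at 1633, and Sirt7 was 693 in control replicate 4, where the next lowest control was at 873. None of these genes was called in a comparison that includes the library named.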

How the results depend on the processing

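Over 64 changes of the 10 genes, 374 values under other settings and 650 with a library left out gave no called change of sign. Calls ended in 7 and 11 of these, appeared in 5 and 3, and an uncalled change turned sign in 16 and 41. Of 58 calls in the NAD, sirtuin and matrix lists, 30 held in every alternative except the replicate block, with which 37 ended.

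The replicate numbers showed no clear pairing of the libraries. In no comparison did every same-numbered pair correlate above 0.1, and not every library correlated best with its own number. At 3 months against 2 weeks the 4 pairs ran from 0.05 to 0.11, and 4 of 8 libraries correlated best with their own number. So few pairs cannot exclude pairing. With a replicate block, in a fit of 2 groups, limma called 70 genes for LNA-29 against control, 944 for 3 months and 1441 for 6 months against prediabetic, 135 for 3 months and 12 for 6 months against 2 weeks, and 4 for 6 against 3 months. Of the genes described, it called 0 at 3 months and 1 (Sirt3, not Parp1) at 6 months against prediabetic, and 0 at 6 months against 2 weeks, where the adjusted p of Sirt3 was 0.0785.

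With no filter, 212 genes were called for LNA-29 and 0 of the genes described at 3 months. In a fit of 2 stages alone 162 genes were called for 3 months against 2 weeks, and 0 of the genes described at 3 months and 1 at 6 months against prediabetic. The cause was not tested.

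Equal column sums moved the median of all genes by a log2 of -0.18 at 6 months against 2 weeks and -0.15 at 6 against 3 months. They gave 182 calls for LNA-29 (143 up, 39 down, against 229 and 126 as deposited), 211 for 3 months against 2 weeks, and 2501 for 6 months against 2 weeks (399 up, 2102 down, against 636 and 567). Against prediabetic they gave 1198 up and 720 down at 3 months (1058 and 1190 as deposited) and 1059 up and 2071 down at 6 months (1505 and 1370). They called 4 of the genes described at 6 months against prediabetic, adding Sirt4 (-0.35, adjusted p = 0.0330) and Nmnat1 (-0.33, adjusted p = 0.0369), and 3 at 6 months against 2 weeks, adding Parp1 (-0.32, adjusted p = 0.0163) and Nmnat1 (-0.35, adjusted p = 0.0484). At 3 months against prediabetic they called 1, Sirt3 (0.44, adjusted p = 0.0423) in place of Nmnat1.

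With a library left out, limma called 120 to 540 genes for LNA-29, the highest without LNA-29 replicate 2, and 0 to 3 at 2 weeks, 1456 to 2389 at 3 months and 1919 to 3567 at 6 months against prediabetic. The range was 41 to 557 for 3 months and 317 to 1716 for 6 months against 2 weeks, and 0 to 4 for 6 against 3 months. Of the genes described it called 0 to 1 for LNA-29, 0 to 1 at 3 months and 1 to 2 at 6 months against prediabetic. Depth is unknown, and the number of animals limits the precision.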
